A study of Mus musculus with 8 samples.

Results

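The 8 genes described here, Mecom, Hlf, Mllt3, Meis1, Prdm16, Erg, Mycn and Gfi1, encode transcription factors and chromatin readers linked to blood stem cells. They were chosen by name out of 32285 genes counted in 6 single-cell RNA libraries of newborn and late fetal mice. All 8 were found in every matrix. The lists used to sort cells into classes were chosen with earlier results of these data known.

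Hematopoietic stem cells sit at the top of the blood hierarchy and lose their own transcription programme as they commit to red cells, granulocytes, monocytes or lymphocytes. Mecom, a zinc-finger factor, and Hlf, a leucine-zipper factor of the PAR family, are needed for stem cell upkeep and fade early on that path. Prdm16 is the closest relative of Mecom. Meis1 is a homeodomain partner of Hox proteins, and Erg is an ETS factor that binds stem cell enhancers together with Runx1, Gata2, Tal1 and Lmo2. Mycn belongs to the Myc family. Mllt3, also called AF9, reads acylated histones and recruits Dot1l and elongation factors. Gfi1 is a zinc-finger repressor known both for restraining stem cell division and for directing granulocyte formation.

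Cells carried the label Epcr+Lin-Sca-1+Kit+, the surface gate of stem cells (Epcr is the product of Procr). At 2 days after birth (P2), 7 wild-type (WT) mice were merged, and their bone marrow, their liver and their spleen gave 1 library each, so the animals cannot be separated. A single WT library came from E19, about 19 days after fertilization. Its title names bone marrow and its tissue field fetal liver, so it is called E19. Tubes 1 and 2 held bone marrow and spleen cells of 2 P2 pups of genotype Tppp3CreER LSLTdTomato given tamoxifen at P0. In such pups Tppp3 drives an inducible Cre, which switches on tdTomato in the cells that then express it and in their progeny. Tube 1 combined 145 sorted tdTomato-positive cells of pup 1 with 5500 negative cells of pup 2, and tube 2 combined 5156 negative cells of pup 1 with 180 positive cells of pup 2. The labels number the pooled tissues, E19 and the tubes as batches 1, 2 and 3, so age, genotype and batch cannot be told apart between them. A pooled animal, a pup or a tube is named in each comparison, because the tubes share both pups and are not separate animals.

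Between 2473 and 10725 cells per library passed the limits of 1000 genes, 2000 UMIs (unique transcript molecules) and 10% mitochondrial UMIs. The median depth was 6523 to 8275 UMIs per cell in the pooled tissues and E19, and 20120 and 20492 in tubes 1 and 2. Shares of cells and all classes were therefore taken at 5000 UMIs per cell, which left out 1543 shallower cells of P2 bone marrow, 1667 of liver, 2888 of spleen, 2635 of E19, 69 of tube 1 and 179 of tube 2. Levels are CPM, the UMIs of a gene scaled by all UMIs of the same cells, summed over a class. The kit reads 3′ tags, so levels of different genes are not ranked against each other. No pair of libraries shared more than 0.3206% of the cell barcodes of either.

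The label was checked with 10 other stem cell genes (among them Procr, Fgd5, Esam, Pdzk1ip1, Ifitm1, Ctla2a, Adgrg1, Angpt1 and Tek). Cells with at least 3 of these and no lineage list, called stem-marker cells, made up 84.4% of E19, 95.3% of tube 1 and 70.0% of tube 2. They made up 34.3% of P2 bone marrow, 29.9% of P2 spleen and 6.8% of P2 liver. The remainder of the pooled tissues was largely cells passing a list of lineage genes. Of P2 liver cells, 31.3% passed the granulocyte progenitor list, 15.3% the B cell list and 13.2% the erythroid list. The pooled P2 libraries, and the liver most of all, thus hold many cells at odds with their label, and every level below is given per class.

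All 8 genes lie on the minus strand of mm10 in GENCODE vM21. Mecom spans chr3:29951296-30548008, Hlf chr11:90336536-90390895, Mllt3 chr4:87769925-88033364 and Meis1 chr11:18879817-19018985. Prdm16 spans chr4:154316125-154636873, Erg chr16:95359169-95586593, Mycn chr12:12936093-12941914 and Gfi1 chr5:107716657-107726036. Mecom, Meis1, Prdm16 and Gfi1 each overlap at least 1 counted gene on the opposite strand. Whether strand was used in counting is not given in the sources used here, so reads of these partners cannot be told apart from theirs with certainty.

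The promoter windows of 4 members that fade together along the range are shown, because they hold the run shared by Mecom and Prdm16, the ETS match and 1 of the MEIS matches. Each runs from 250 bases before to 50 after a RefSeq start site (GRCm38.p6), 5′ to 3′ on the minus strand. The windows are chr3:30509710-30510009 (Mecom), chr4:154636824-154637123 (Prdm16), chr11:19018920-19019219 (Meis1) and chr12:12941787-12942086 (Mycn). In Mecom and Prdm16 the capitals mark the longest run shared by any 2 members. In Meis1 they mark the ETS letters CCGGAAGT read on the other strand, and in Mycn the MEIS letters TGACAG.
Mecom: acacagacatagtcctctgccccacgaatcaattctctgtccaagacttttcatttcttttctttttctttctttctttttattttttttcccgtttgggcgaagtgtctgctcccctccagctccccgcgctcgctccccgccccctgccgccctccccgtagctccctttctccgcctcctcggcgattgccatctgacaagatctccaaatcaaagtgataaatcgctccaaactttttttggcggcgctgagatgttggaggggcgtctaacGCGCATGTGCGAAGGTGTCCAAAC
Prdm16: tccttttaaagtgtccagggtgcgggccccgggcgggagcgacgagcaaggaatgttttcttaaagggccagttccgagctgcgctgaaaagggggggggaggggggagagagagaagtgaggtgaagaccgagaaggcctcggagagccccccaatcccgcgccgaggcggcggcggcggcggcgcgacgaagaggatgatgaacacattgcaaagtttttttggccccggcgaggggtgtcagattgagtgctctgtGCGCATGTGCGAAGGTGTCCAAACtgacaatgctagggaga
Meis1: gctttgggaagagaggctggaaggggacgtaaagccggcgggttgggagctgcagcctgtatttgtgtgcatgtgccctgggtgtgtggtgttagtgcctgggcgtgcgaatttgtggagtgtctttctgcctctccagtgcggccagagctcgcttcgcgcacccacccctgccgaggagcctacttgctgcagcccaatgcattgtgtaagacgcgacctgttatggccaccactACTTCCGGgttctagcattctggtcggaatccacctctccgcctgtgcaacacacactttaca
Mycn: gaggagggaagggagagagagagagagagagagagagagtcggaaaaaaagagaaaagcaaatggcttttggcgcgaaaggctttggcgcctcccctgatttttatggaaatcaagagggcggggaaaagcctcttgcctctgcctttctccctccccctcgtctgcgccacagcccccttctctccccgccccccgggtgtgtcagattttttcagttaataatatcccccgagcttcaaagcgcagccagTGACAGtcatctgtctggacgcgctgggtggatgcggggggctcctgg

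The shared run, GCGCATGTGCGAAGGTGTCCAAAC, is 24 bases long. It lies 27 to 50 bases after the start site in Mecom and 10 to 33 bases after it in Prdm16, the paralogs of the set. In Mecom it ends at the last base of the window, so the shared stretch may be longer. Of 32851 RefSeq promoter windows, 2 held the run, those of Mecom and Prdm16. Short motifs were searched on both strands in the 13 windows of the members. TGACAG (MEIS) was in 4 of the 13, belonging to Mecom (a second window, not shown), Mllt3, Mycn and Erg, against 19.18% of all windows. CCGGAAGT (ETS) was in 1, of Meis1, against 3.887%, and TGTGGT (RUNX) in 1, also of Meis1, against 16.76%. The letters AGATAA, bound by Gata factors, were in 1, of Erg, against 11.18%. CACGTG, the E-box of Myc proteins, was in none against 7.15%, and TTACGTAA, the PAR leucine-zipper site, was in none against 0.1187%. The 6 motifs were searched separately, without resolving overlaps between them, and such matches describe these windows alone.

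Mecom and Hlf were seen in most cells of E19 and the tubes and in few of P2 liver. At 5000 UMIs, Mecom was seen in 83.2% of E19 cells, 31.6% of P2 bone marrow, 6.88% of P2 liver, 26.2% of P2 spleen, 90.4% of tube 1 and 68.6% of tube 2. Hlf followed the same order, with 80.3%, 29.1%, 8.52%, 24.8%, 88.3% and 68.5%. For comparison, in erythroid cells, which are not known to need either gene, Mecom was seen in 5.31%, 1.53%, 2.22%, 12.3% and 1.71% of P2 bone marrow, liver, spleen, E19 and tube 2. Their median depth was 12797, 20570, 13994, 17183 and 43062 UMIs before thinning, against 7120 to 21825 in cells with both genes. The share of Mecom in whole P2 liver thus stood closer to that in erythroid cells than any other library's did.

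Meis1 was seen in 79.6% of E19 cells, 45.2% of P2 bone marrow, 18.4% of liver, 35.0% of spleen, 93.8% of tube 1 and 70.4% of tube 2. Erg was seen in 56.7%, 36.1%, 19.3%, 25.1%, 76.7% and 62.4% of the same libraries. Prdm16 was seen in 35.0%, 9.3%, 3.7%, 8.2%, 41.3% and 32.3%. Mycn stood at 30.6%, 11.1%, 2.7%, 10.7%, 43.5% and 35.7%. These 4 were lowest in P2 liver and highest in tube 1, as Mecom and Hlf were. Mllt3 differed less between libraries, at 68.1%, 32.0%, 31.9%, 42.8%, 68.4% and 60.5%, and was as frequent in liver as in bone marrow. Gfi1 was seen in 14.7%, 10.4%, 8.3%, 5.5%, 16.1% and 14.0%, and its lowest library was the spleen. Without thinning, the median share over the 6 libraries was 54.3% for Mecom, 55.2% for Hlf, 64.6% for Mllt3, 64.4% for Meis1, 29.7% for Prdm16, 58.4% for Erg, 28.6% for Mycn and 18.9% for Gfi1. With 1 library per tissue and age these shares have no replicates and were not tested.

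Cells were then arranged from those with UMIs of both Mecom and Hlf (Mecom/Hlf cells), through those with 1 or neither of the pair, to cells that passed a lineage list. Mecom and Hlf define the first classes, so their levels there are a description of the gate. Mecom/Hlf cells numbered 953 in P2 bone marrow, 161 in liver, 1032 in spleen, 6080 in E19, 2165 in tube 1 and 1451 in tube 2. In them Mecom stood at 801, 1263, 843, 1623, 1017 and 1082 CPM, and Hlf at 483, 660, 477, 776, 708 and 857 CPM. E19 was highest for Mecom and tube 2 for Hlf, while P2 bone marrow and spleen were lowest for both.

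The other 6 genes were not used to choose these cells. Meis1 stood at 519, 721, 488, 703, 740 and 755 CPM in Mecom/Hlf cells of P2 bone marrow, liver, spleen, E19, tube 1 and tube 2, and Mllt3 at 240, 420, 235, 426, 374 and 420 CPM. Prdm16 stood at 66, 113, 66, 121, 116 and 127 CPM, and Erg at 187, 258, 197, 238, 331 and 347 CPM. P2 bone marrow and spleen were again the lowest libraries for these 4. Mycn, at 78, 82, 94, 92, 126 and 144 CPM, and Gfi1, at 24, 25, 21, 38, 37 and 42 CPM, were highest in tube 2. Tube 2 was also the highest library for Meis1, Prdm16 and Erg. A Mecom/Hlf cell held UMIs of a median of 3 of these 6 genes in the pooled tissues and E19 and of 4 in the tubes.

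In cells with neither Mecom nor Hlf at 5000 UMIs, the median over libraries was 135 CPM for Meis1 (88 to 504) against 712 in Mecom/Hlf cells. It was 60 for Erg (30 to 229) against 248, 18 for Mycn (8 to 82) against 93 and 9.7 for Prdm16 (6.9 to 36.4) against 115. The highest value in cells with neither was that of tube 1 for each of these 4 genes, where the 55 such cells still had 504 CPM of Meis1 and 229 CPM of Erg. In their full counts, at a median of 30383 UMIs, these 55 cells also had 160 CPM of Mecom and 174 CPM of Hlf. Of them 81.8% had at least 3 of the 10 stem cell genes, so they are not cells without Mecom and Hlf. Mllt3 kept 109 CPM (78 to 162) against 397, and Gfi1 5.2 (2.7 to 16.1) against 31.

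**Figure D1:**
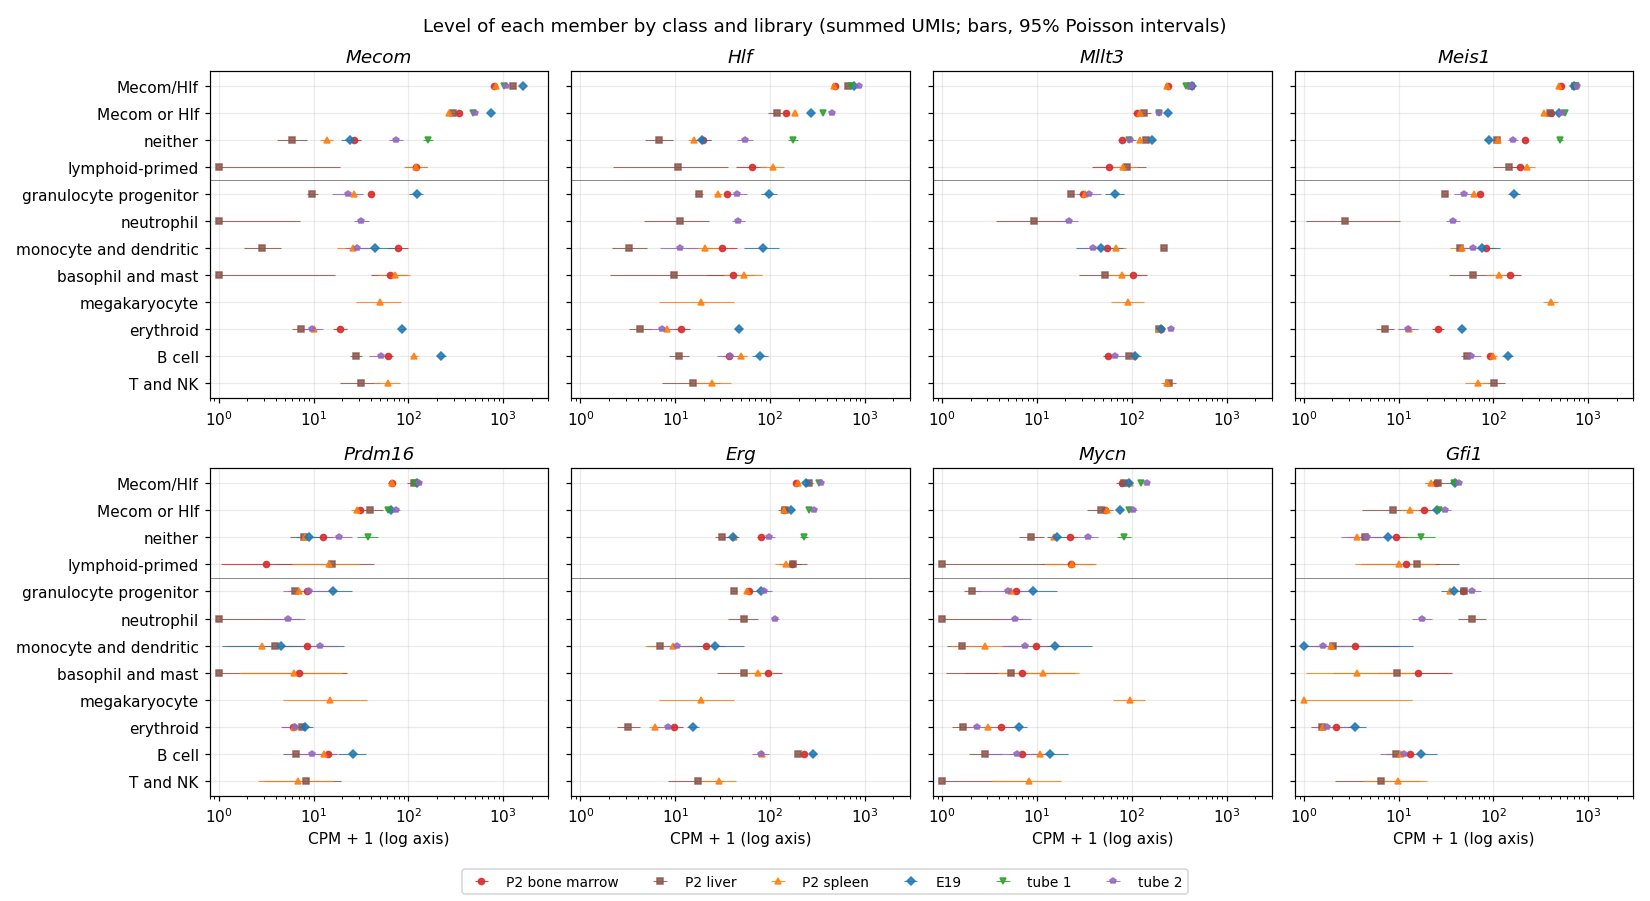
Level of each member (CPM plus 1, log axis) in each class of at least 20 cells, 1 point per library, with 95% Poisson intervals that cover counting error only; the grey line separates classes without a lineage list from those with one. Mecom, Hlf and Prdm16 are lower in each lineage class than in Mecom/Hlf cells of any library, whereas Mllt3 lies at 192 to 260 CPM in erythroid cells, Erg at 78 to 281 in B cells and Gfi1 at 34 to 58 in granulocyte progenitors.

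Mllt3, Erg, Gfi1, Meis1 and Mycn each had at least 1 lineage class with a level within or near the range of Mecom/Hlf cells over libraries. Mllt3 stood at 205, 192, 192, 204 and 260 CPM in erythroid cells of P2 bone marrow, liver, spleen, E19 and tube 2. It stood at 245 and 236 CPM in T and NK cells of P2 liver and spleen and at 217 CPM in monocyte and dendritic cells of P2 liver, against 37.6 to 67.9 in the 4 other libraries with this class. Its erythroid level differed little between libraries, and the level in monocyte and dendritic cells of the liver stood apart from all others. In each of these libraries the erythroid level of Mllt3 was below that of Mecom/Hlf cells, which stood at 426 CPM in E19 and 235 in spleen. Of the T and NK cells, 29.4% in P2 liver and 31.4% in P2 spleen had a high doublet score, and the part of doublets was not tested.

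Erg stood at 225, 199, 81, 281 and 78 CPM in B cells of P2 bone marrow, liver, spleen, E19 and tube 2, which overlaps its range in Mecom/Hlf cells. In erythroid cells it stood at 2.2 to 14.4 CPM. Gfi1 stood at 47, 47, 34, 37 and 58 CPM in granulocyte progenitors of the same libraries and at 0.6 to 2.4 CPM in erythroid cells. Its granulocyte progenitor levels overlapped those of Mecom/Hlf cells, and its erythroid levels lay below all of them. Meis1 stood at 400 CPM and Mycn at 95 CPM in 21 megakaryocyte-list cells of P2 spleen, where Mecom stood at 49.1 and Hlf at 17.5 CPM and no Gfi1 UMI was seen. Meis1 and Mycn thus stood at levels near those of Mecom/Hlf cells in this small class.

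In B cells, granulocyte progenitors and erythroid cells, Mecom and Hlf had their highest levels in E19. Mecom stood at 223 CPM in B cells, 121 in granulocyte progenitors and 85 in erythroid cells of E19, against at most 114, 39.6 and 18.1 in the other libraries. Hlf stood at 77, 96 and 46 CPM in these 3 E19 classes. In monocyte and dendritic cells, Hlf was highest in E19 (82.5 CPM), but Mecom was highest in P2 bone marrow (77 CPM, against 43.0 in E19). Mecom was also most abundant in Mecom/Hlf cells of E19. A high doublet score was found in 20.8% of B cells, 3.75% of granulocyte progenitors and 11.6% of erythroid cells of E19. The parts of doublets and of RNA shared between droplets in these lineage values were not tested.

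Within cells that passed no lineage list, the other 6 genes were followed over bins of Mecom plus Hlf UMIs per 5000. Mllt3 stood at 72 to 159 CPM at 1 UMI and at 521 to 764 CPM at 11 or more. Meis1 went from 290 to 509 CPM at 1 UMI to 641 to 909, and Prdm16 from 16 to 49 to 115 to 208. All 3 were higher in the top bin than in the bin of 1 UMI in each of the 6 libraries. Erg went from 120 to 268 CPM at 1 UMI to 236 to 391, Mycn from 31 to 94 to 95 to 167 and Gfi1 from 4.9 to 21.9 to 33 to 54, again higher in the top bin in all 6 libraries. The bins and the genes come from the same cells, and bins of P2 liver held as few as 32 cells.

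**Figure D2:**
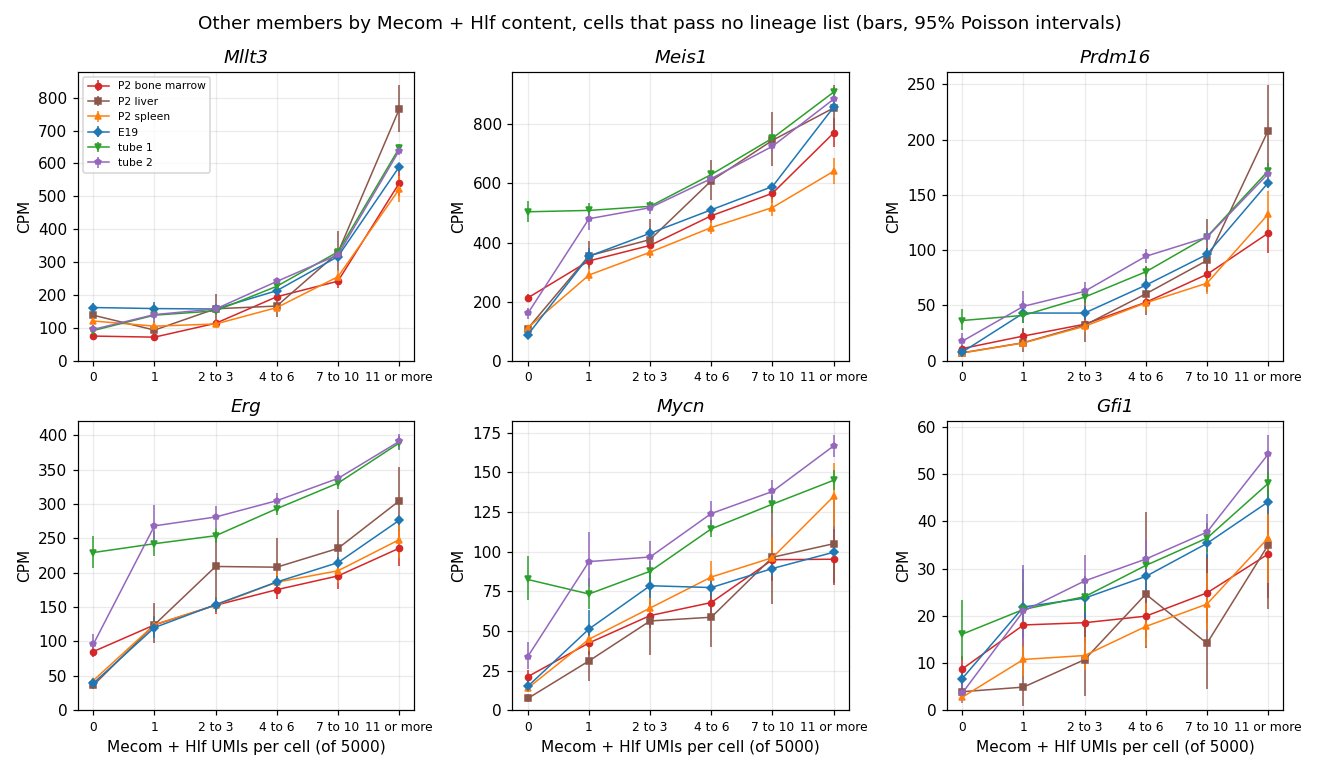
CPM of the 6 members that do not define the bins, against Mecom plus Hlf UMIs per cell (of 5000), in cells passing no lineage list; lines join the bins of 1 library and bars are 95% Poisson intervals. Mllt3 goes from 72 to 159 CPM at 1 UMI to 521 to 764 CPM in the top bin, while Meis1 is already at 290 to 509 CPM at 1 UMI.

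Some granulocyte progenitors kept UMIs of both Mecom and Hlf: 70 of 1529 in P2 bone marrow, 30 of 972 in spleen, 9 of 1241 in liver and 11 of 80 in E19. In P2 bone marrow, Meis1 stood at 272 CPM in these and at 50 CPM in progenitors with neither, and in spleen at 202 and 49 CPM. Mycn stood at 29 and 1.9 CPM in bone marrow and at 45 and 2.1 in spleen. Mpo, the myeloperoxidase gene of the lineage, stood at 1882 against 3660 CPM in bone marrow and 1565 against 2879 in spleen. Cells with both genes thus had more Meis1 and Mycn and less Mpo in these 2 libraries. They also had a high doublet score more often, 34.3% against 7.58% in bone marrow and 26.7% against 10.5% in spleen, and the part of doublets in these values was not tested.

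To test the decline in all 8 genes, stem-marker cells were compared with each lineage class over sums per source. The 10 genes of that gate include none of the 8. The sources were the pool (P2 tissues added up), E19, tube 1 and tube 2, with source as a block. Tube 1 held too few lineage cells and entered through its stem-marker cells alone. With the block this single sum has no counterpart, so the differences rest on the pool, E19 and tube 2. Stem-marker cells had 541, 1511, 910 and 1003 CPM of Mecom in the pool, E19, tube 1 and tube 2, and 307, 710, 635 and 795 CPM of Hlf. Meis1 stood at 446, 678, 707 and 724 CPM and Mllt3 at 181, 404, 340 and 392. The pool was lowest for each of these 4 genes. Prdm16 stood at 48, 115, 106 and 121 CPM, Erg at 166, 231, 318 and 340, Mycn at 68, 90, 120 and 138, and Gfi1 at 18, 37, 35 and 40. The pool was lowest for these as well.

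Against monocyte and dendritic cells all 8 members were higher in stem-marker cells, where 17.7% of 14909 genes were called higher and 17.3% lower. Mecom, at 14.5, 43.0 and 28.1 CPM in monocyte and dendritic cells of the pool, E19 and tube 2, was higher by 4.95 ± 0.48 log2 units in stem-marker cells (SE; edgeR adjusted p = 6.45e-06). Gfi1 was higher by 4.54 ± 0.66 (edgeR adjusted p = 0.000148), with 8, 0 and 1 UMIs in the 3 monocyte and dendritic sums. Both groups of sums were far apart for these genes. Mllt3, at 173, 47 and 38 CPM, was higher by 1.52 ± 0.51 (edgeR adjusted p = 0.0313). That call was lost without E19 (edgeR adjusted p = 0.201), without tube 2 (0.268) and with gates on unthinned counts (0.085).

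Against erythroid cells 7 of 8 members were higher and none lower, where 32.8% of genes were called higher and 26.2% lower. Their differences ran from 3.37 ± 0.34 for Prdm16 (edgeR adjusted p = 2.35e-06) to 5.03 ± 0.47 for Mecom (edgeR adjusted p = 1.1e-06). Erg, at 5.1, 14.4 and 7.4 CPM in erythroid cells of the pool, E19 and tube 2, was higher in stem-marker cells by 4.43 ± 0.41. Mllt3 was the exception. At 194, 204 and 260 CPM in erythroid cells it overlapped its own stem-marker range over sources, with a difference of 0.11 ± 0.46 (edgeR adjusted p = 0.855). Within a source, its CPM was lower in erythroid cells of E19 (404 in stem-marker cells) and tube 2, but not of the pool. The difference was -0.13 without E19 and -0.03 with the 6 libraries as units. The median over all genes moved from 0.15 to 0.28 log2 units with other size factors, which is small beside the 7 differences.

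Against granulocyte progenitors 7 of 8 members were higher, where 15.6% of genes were called higher, and none was lower, where 13.3% were. Mecom was higher by 4.29 ± 0.46 (edgeR adjusted p = 4.04e-05) and Mycn by 4.05 ± 0.39 (edgeR adjusted p = 1.87e-05). Erg, at 52, 79 and 86 CPM in progenitors of the pool, E19 and tube 2, differed by 1.55 ± 0.37 (edgeR adjusted p = 0.00678). The Erg call was lost without the pool (edgeR adjusted p = 0.056) and with gates on unthinned counts (0.0868). Gfi1, at 44, 37 and 58 CPM in progenitors, overlapped the stem-marker range and differed by -0.84 ± 0.39 (edgeR adjusted p = 0.123). With each of the 6 libraries as a unit, Gfi1 was lower in stem-marker cells by -1.10 ± 0.26 (edgeR adjusted p = 0.000896), but the tissues of the pool then count as separate.

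Against B cells 6 of 8 members were higher, where 13.1% of genes were called higher, and none was lower, where 9.5% were. Hlf differed by 3.61 ± 0.43 (edgeR adjusted p = 7.31e-05) and Mycn by 3.54 ± 0.37 (edgeR adjusted p = 2.98e-05). Erg, at 175, 281 and 78 CPM in B cells of the pool, E19 and tube 2, overlapped its stem-marker range and differed by 0.32 ± 0.36 (edgeR adjusted p = 0.581). Without tube 2 the Erg difference was -0.32. Gfi1, at 10.0, 16.3 and 10.3 CPM, lay below each stem-marker sum but missed the threshold, with 1.25 ± 0.43 (edgeR adjusted p = 0.0518). It was called in 5 of 14 alternatives, with an adjusted p from 0.00535 (6 libraries as units) to 0.144 (without tube 2). The Mllt3 call, 1.81 ± 0.49 (edgeR adjusted p = 0.0167), was lost without E19 (0.095).

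Neutrophil sums came from the pool (45 cells) and tube 2 (250 cells). Here 6 of 8 members were higher in stem-marker cells, where 19.4% of genes were called higher, and none was lower, where 20.2% were. Meis1 differed by 3.38 ± 0.44 (edgeR adjusted p = 6.01e-05) and Mllt3, at 14.3 and 20.7 CPM in neutrophils, by 3.31 ± 0.67 (edgeR adjusted p = 0.00158). Erg, at 56 and 113 CPM, lay below its stem-marker values, with a difference of 0.65 ± 0.42 (edgeR adjusted p = 0.241). Gfi1, at 56 and 17 CPM, overlapped them, with -0.78 ± 0.50 (edgeR adjusted p = 0.228). Its direction differed between the sources. Gfi1 was higher in neutrophils than in stem-marker cells of the pool, but lower in tube 2 (40 CPM in stem-marker cells). The neutrophil classes also differed in the granulocyte progenitor list, which stood at 19151 CPM in P2 liver and 3156 CPM in tube 2. The pool's neutrophils held 5 UMIs of Mecom, 2 of Mycn and none of Prdm16, so those 3 fold changes rest mainly on tube 2. Of the pool's neutrophils 43 came from the liver, and 44.2% of the liver's had a high doublet score.

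**Figure D3:**
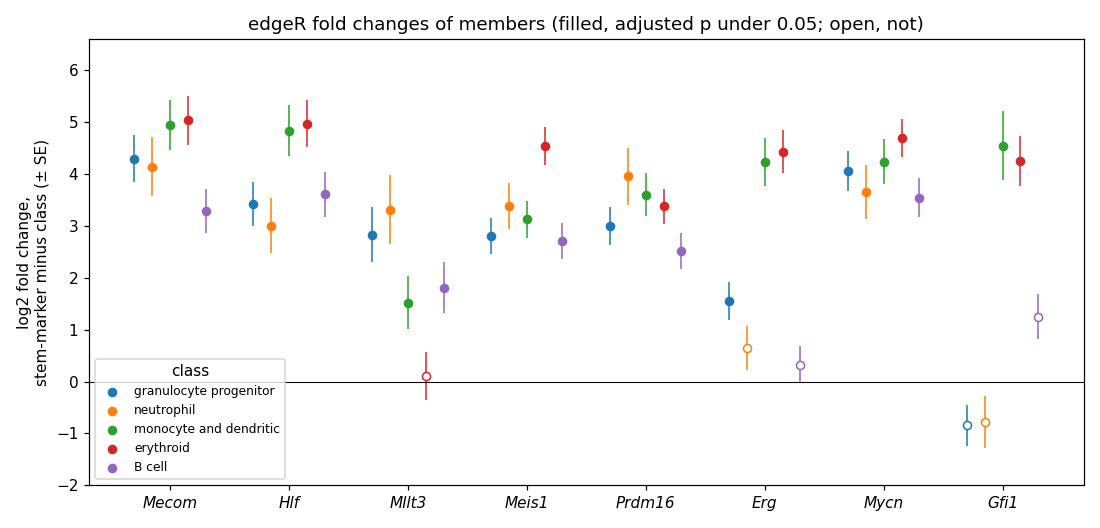
Difference of each member between stem-marker cells and 5 lineage classes (log2 units, edgeR, bars 1 SE), over sums of up to 4 sources. Open points mark Mllt3 against erythroid cells (0.11), Erg against neutrophils and B cells (0.65 and 0.32) and Gfi1 against granulocyte progenitors, neutrophils and B cells (-0.84, -0.78 and 1.25), which missed an adjusted p of 0.05.

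The median difference of the 8 members was 4.23 log2 units against monocyte and dendritic cells, 4.48 against erythroid cells, 2.91 against granulocyte progenitors, 2.61 against B cells and 3.34 against neutrophils. Over all genes tested it was 0.09, 0.15, 0.10, 0.07 and 0.10. A list of 17 partner genes (cofactors and genes bound together with the members) had medians of 0.34, 0.10, 0.30, 0.26 and 0.08, with 7, 7, 7, 6 and 6 genes higher and 1, 5, 1, 1 and 3 lower. A list of 9 relatives of the members had medians of 1.21, 0.40, 0.58, 0.37 and 0.94, with 4, 4, 2, 0 and 2 higher and 2, 2, 2, 0 and 1 lower.

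Among the partners, Gata2 and Hoxa9 were higher in stem-marker cells against all 5 classes. Gata2, a zinc-finger factor of stem and mast cells, differed by 4.18 against monocyte and dendritic cells and by 1.48 against granulocyte progenitors. Hoxa9, a homeobox factor that pairs with Meis1, differed by 4.18 against erythroid cells and by 1.92 against granulocyte progenitors. Tal1 was higher against 4 classes but lower against erythroid cells (-1.70), which use it for hemoglobin genes. Fli1, the closest relative of Erg, was higher against erythroid cells (4.17) and was not called against the other 4 classes. The 3 cofactor genes of Mllt3 differed among themselves. Dot1l was lower against erythroid cells (-0.87) and was not called against the other 4 classes. Aff1 was lower against B cells (-2.42), granulocyte progenitors (-1.45), monocyte and dendritic cells (-1.42) and neutrophils (-1.88). Aff4 was higher against erythroid cells (1.47) and granulocyte progenitors (0.63). Of the relatives, Gfi1b, the erythroid and megakaryocyte counterpart of Gfi1, was lower against erythroid cells (-4.14). Tef and Dbp, which share the PAR family with Hlf, were higher against erythroid cells by 1.09 and 1.63, and Nfil3, which binds the same DNA sites, by 3.04.

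Members and all other genes were also compared by their pattern over 44 class and library sums of at least 50 cells. Pearson r of log2(CPM + 10) was computed across these sums, which share libraries and depth, so it is given as a description. Mecom and Hlf were each other's closest gene among 7085 (r = 0.973), and both define some of the classes. Meis1 was closest to Calcrl, a receptor gene (0.971), Rbpms and Zfp521, and Mycn to Myct1 (0.964), Emcn and Thsd1. Prdm16 was closest to Myct1 (0.955), 6030498E09Rik and Hlf. Erg was closest to Zfp608 (0.915), Gabpb1 and Marcksl1, and Gfi1 to Gstm1 (0.870), Nxn and Stk26. Mllt3 had Elp4 (0.849) and Tor1aip2 (0.843) among its 3 closest genes. Myct1 was among the 3 closest of Mecom, and Hlf was closest to Camk2a and Myct1 after Mecom. Mllt3 had r of at most 0.598 with another member (Prdm16) and -0.084 with Gfi1, whereas Meis1 and Mycn had 0.940. Of the 24 closest genes, 3 for each member, 18 stayed among the 3 closest with a pseudocount of 1 CPM and 15 with Spearman rho.

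The next question was whether the tissue matters at P2, bone marrow against spleen. The comparison used the pool and the tdTomato-negative cells of pups 1 and 2. Mecom stood at 525 and 522 CPM in bone marrow and spleen of the pool, 1131 and 968 in pup 1 and 938 and 914 in pup 2. Meis1 stood at 455 and 416, 802 and 660, and 757 and 641 CPM, and Prdm16 at 46.7 and 43.7, 141 and 112, and 111 and 99.1. Bone marrow was higher in all 3 sources for these genes, though the counting intervals of the tissues overlapped for Mecom in the pool and pup 2 and for Prdm16 in the pool, and the gap between pool and pups was wider than that between tissues. Mycn stood at 62.6 and 73.0, 129 and 131, and 116 and 124 CPM, with the spleen higher in all 3 but with overlapping counting intervals in both pups. Gfi1 stood at 20.6 and 15.5, 56.2 and 38.6, and 37.1 and 35.0 CPM, and Mllt3 at 172.2 and 171.8, 429 and 359, and 365 and 328. Their counting intervals overlapped in pup 2 for Gfi1 and in the pool for Mllt3. Hlf stood at 298 and 306, 925 and 751, and 685 and 571 CPM and Erg at 160 and 166, 375 and 322, and 339 and 299, with the pool against the direction of the pups but with overlapping counting intervals in it.

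None of the 8 members was called, and neither was any of the 13816 genes (0%; edgeR, 333 at an unadjusted p under 0.05, DESeq2 3 called). Bone marrow minus spleen was 0.03 ± 0.10 log2 units for Mecom, 0.11 ± 0.14 for Hlf, 0.08 ± 0.09 for Mllt3 and 0.16 ± 0.09 for Meis1. It was 0.13 ± 0.09 for Prdm16, 0.05 ± 0.09 for Erg, -0.18 ± 0.07 for Mycn and 0.25 ± 0.13 for Gfi1. With the source as a block 1 gene was called higher in bone marrow (0.00724%), and with a second hashtag rule as well 4 were (0.0279%), none of them a member. These tests do not show that the tissues are alike. The bone marrow sum of pup 1 held 85 cells.

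The last comparison asked how tdTomato-positive stem-marker cells, which descend from cells with Tppp3 expression around P0, differ from negative ones. Positive cells numbered 27 in pup 1 and 40 in pup 2, against 934 and 1999 negative cells, with bone marrow and spleen added up. Negative cells were 85 of bone marrow and 849 of spleen in pup 1, and 1337 and 662 in pup 2. The tissue mix of positive cells is not given here, and its part in the values was not tested. The tube cannot be told apart from the sort within a pup, but its order is reversed between the pups. Mecom stood at 1333 CPM in positive and 981 in negative cells of pup 1, and at 1309 and 929 in pup 2. Mllt3 stood at 529 and 364 CPM in pup 1 and 604 and 351 in pup 2, and Hlf at 1140 and 765 and 850 and 642. Positive cells were higher in both pups for these 3 and also for the other 5. Meis1 stood at 845 and 672 CPM in pup 1 and 997 and 713 in pup 2, and Mycn at 164 and 131 and 172 and 119. Prdm16 stood at 146 and 115 and 130 and 107 CPM, Erg at 398 and 327 and 402 and 324, and Gfi1 at 59 and 40 and 43 and 36. The counting intervals of positive and negative cells overlapped for Prdm16 and Gfi1 in both pups and for Mycn in pup 1. Median depth was 13101 UMIs in positive and 26155 in negative cells of pup 1, and 18096.5 and 20631 in pup 2.

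With the low-count filter and no block for the pup, edgeR called no member in the sums of both pups, where 0.0589% of 13575 genes were called higher and 0.236% lower. Mllt3 differed by 0.59 ± 0.11 log2 units (edgeR adjusted p = 0.104), Mecom by 0.39 ± 0.09 (edgeR adjusted p = 0.182), Hlf by 0.41 ± 0.14 and Meis1 by 0.34 ± 0.12 (both edgeR adjusted p = 0.335). Without the block, other settings called some members higher. DESeq2 called Mllt3 (adjusted p = 2.2e-05) and Mecom (6.36e-06). With no filter on low counts, edgeR called Mllt3 (adjusted p = 0.00011) and Hlf (0.038). Leaving out 1 sum leaves a single sum in its group, so only the differences are given. They ran from 0.43 to 0.68 for Mllt3 and from 0.20 to 0.57 for Hlf. With the pup as a block 0.891% of genes were called higher and 2.02% lower, and 4 of 8 members were called higher. These were Mllt3 (0.60 ± 0.10, edgeR adjusted p = 4.13e-07), Mecom (0.39 ± 0.08, edgeR adjusted p = 0.000129), Hlf (0.41 ± 0.09, edgeR adjusted p = 0.00019) and Meis1 (0.34 ± 0.09, edgeR adjusted p = 0.00725). Mycn (0.38 ± 0.13), Erg (0.22 ± 0.11), Gfi1 (0.31 ± 0.23) and Prdm16 (0.24 ± 0.14) were not called. With a second hashtag rule and the pup block 1.41% of genes were called higher and 2.2% lower. Meis1 was not called (0.11 ± 0.06, edgeR adjusted p = 0.49), while Mllt3 (0.54 ± 0.07), Mecom (0.35 ± 0.06) and Hlf (0.24 ± 0.06) were. With only 2 pups, whether Mllt3, Mecom, Hlf and Meis1 are called thus varied with the block and with other settings of the test, whereas Prdm16, Erg, Mycn and Gfi1 were called in none of the 15 alternatives. The part of free RNA from the other cells of a tube in these values was not tested.

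**Figure D4:**
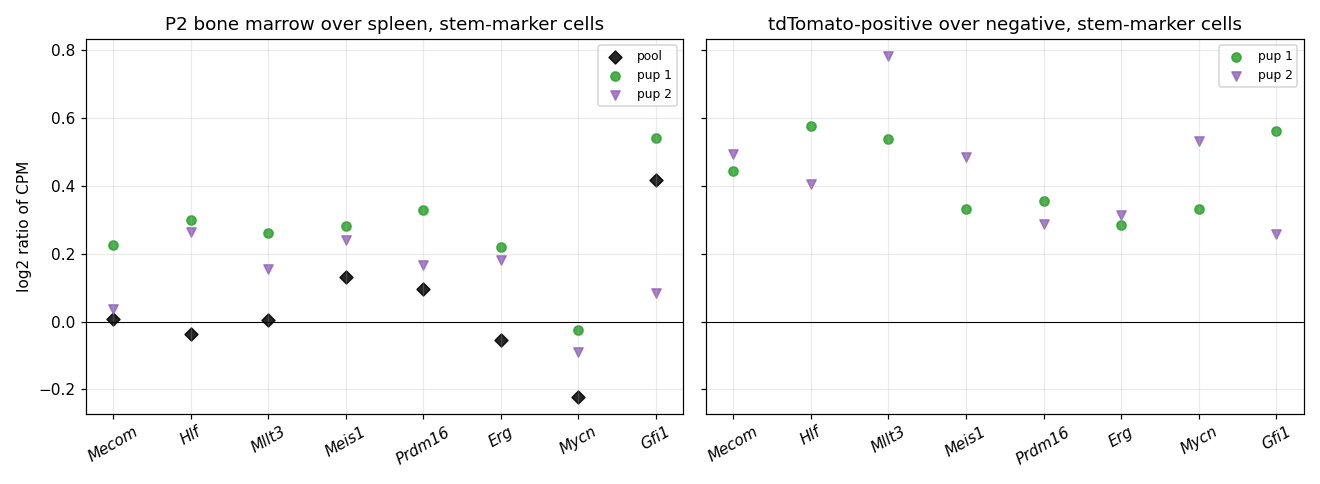
Log2 ratio of CPM of each member in stem-marker cells, left, P2 bone marrow over spleen in the pool and each pup, and right, tdTomato-positive over negative cells in each pup; 1 point per source. On the right all 16 ratios lie above 0, whereas on the left Hlf and Erg of the pool (-0.04 and -0.05) and Mycn of all 3 sources lie below it. On the right, counting intervals of positive and negative cells overlapped for Prdm16 and Gfi1 in both pups and for Mycn in pup 1.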

How the data were processed

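Droplet 3′ RNA libraries (Chromium v3) of 6 samples were analysed, and 2 further samples, whose files hold only hashtag reference lists, were not used here. The deposited matrices hold UMI counts, made per the file headers with Cell Ranger 7.0.0 for the pooled tissues, 7.1.0 for E19 and 8.0.1 for the tubes. Cell Ranger 7.0.0 and mm10 are given for all samples in the submitters' processing notes. The members and lists were chosen with earlier results of these data known. Named genes are the 8 members, all 26 listed partners and relatives, and the 3 genes of highest r for each member. Some of these genes are not reported here.

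Cells were thinned to 5000 UMIs (seed 1) for gates and shares. A lineage list needed 3 of 8 genes and 5 UMIs, and 2 times the second list. Classes are marker gates, not clusters. Doublets were not removed (removing the highest Scrublet scores, scanpy 1.11.5, was an alternative). A cell took a hashtag over the 99th percentile of its background and at 3 times the second. Intervals (exact 95% Poisson or Clopper-Pearson, scipy 1.17.1) cover counting error only.

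UMI counts were summed per source and class (at least 20 cells, or 10 per pup) and tested with edgeR's quasi-likelihood F-test (version 4.0.16, R 4.3.3), after filterByExpr and TMM scaling, at a Benjamini-Hochberg adjusted p of 0.05 over all genes. The scripts were tested on simulated data. Bone marrow against spleen had a batch term. P-values measure the spread between these few sums. Tissues and sorts of a source come from the same animals, which pairs them. Deviations of paired sums from their tissue or sort means correlated at 0.751, 0.533 and 0.572 for tissue (pool, pups 1 and 2) and 0.113 for sort. The tissue values also carry the gap between pool and pups, so they do not measure pairing by animal alone. Alternatives were DESeq2 1.42.0, other size factors, no filter, other gates and hashtag rules, 6 libraries as units, and leaving out each source. Sequences are from RefSeq (GRCm38.p6), matched by symbol for all 8 members.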

Additional observations from a re-analysis of the deposited data

Results flagged for a closer look

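For 2 members the pool and the pups differed in the direction of bone marrow over spleen in stem-marker cells. Hlf had a log2 ratio of 0.3 in pup 1 and 0.26 in pup 2, but -0.04 among pooled mice. Erg had 0.22 in pup 1 and 0.18 in pup 2, but -0.05 among pooled mice. The counting intervals of the 2 tissues overlapped in the pool for both genes. The difference between pool and pups was not tested, and genotype and batch differ between them as well.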

How the results depend on the processing

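In the comparisons with lineage classes, 3363 genes were called for B cells, 8790 for erythroid cells, 4308 for granulocyte progenitors, 5217 for monocyte and dendritic cells and 5903 for neutrophils. With the 6 libraries as units, 5799 were called for B cells and 7777 for granulocyte progenitors. Without the replicate block, 2665 were called for granulocyte progenitors. Leaving out a source gave 1566 (without the pool) to 3306 for B cells, 6927 to 8542 for erythroid cells, 1841 (without the pool) to 4253 for granulocyte progenitors, 2808 (without the pool) to 5151 for monocyte and dendritic cells and 5044 to 5895 for neutrophils. Neutrophils have no sum in a second source without the pool or tube 2. Tube 1 has no lineage sum, so leaving it out removes no pair of stem-marker and lineage sums. The Erg difference from B cells ran from -0.3204 (without tube 2) to 0.6634 (without E19). The Mllt3 difference from erythroid cells was -0.0329 with 6 libraries as units and ran from -0.1273 (without E19) to 0.2877 (without the pool). For tissue, DESeq2 called 3 genes, no filter 96, the replicate block 1, the block with the second hashtag rule (chosen after seeing the data) 4, and leaving out a source 0 to 5. Mecom turned to -0.0064 with Mecom and Hlf as the gate and ran from -0.0304 (without pup 1) to 0.0744 (without the pool). Erg turned to -0.0005 with at least 4 markers and ran from -0.0011 (without pup 2) to 0.1394 (without the pool). For sort, 40 genes were called, against 170 with DESeq2, 0 with the second hashtag rule alone (1064 at an unadjusted p under 0.05), 4 without the highest Scrublet scores, 459 with no filter, 395 with the replicate block, 522 with both block and second hashtag rule, 71 and 21 with at least 2 and 4 stem markers, and 114 to 284 without 1 sum. The pairing changed the calls of Mecom, Hlf, Mllt3 and Meis1 there and of no other member in any comparison. The median share of Gfi1 was 12.2% at 5000 UMIs, 6.05% at 2500 and 18.9% unthinned. Hlf stood at a median of 498 CPM in stem-marker cells against 684 in Mecom/Hlf cells. The cause of these changes was not tested. The 27 and 40 positive cells, the 2 pups and the low Gfi1 counts limit the precision.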
